A study of Mus musculus with 7 samples.

Results

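Sst GABAergic neurons of the posterolateral cortical amygdala (plCoA) were followed here in single-nucleus RNA-seq (snRNA-seq) as nuclei chosen by their counts of a few genes. A nucleus was a barcode with at least 1000 genes and at most 30000 unique molecular identifiers (UMIs, each marking a counted RNA molecule). GABAergic nuclei held at least 3 UMIs of Gad1 and Gad2 together and at most 1 UMI of Slc17a7 and Slc17a6, and Sst nuclei were the GABAergic nuclei with at least 3 UMIs of Sst and at most 1 of Vip. Of 51115 nuclei, 4132 were GABAergic and 453 of those were Sst nuclei. The remaining 3679 GABAergic nuclei served for comparison. The tissue was the anterior (aplCoA) or the posterior (pplCoA) part of the plCoA, dissected from 8-week-old male C57BL6J mice that had been housed singly and deprived of sensory stimuli before sacrifice. Each domain had 3 biological replicates, each of them tissue pooled from several mice, so that the spread between replicates is a spread between pools. The aplCoA replicate 1 was sequenced as 2 libraries, which were summed, and the other 5 replicates as 1 library each.

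Somatostatin-expressing neurons are one of the main classes of inhibitory neurons in cortex and amygdala, and they release GABA together with the peptide somatostatin. They are born in the medial ganglionic eminence (MGE) of the embryonic forebrain, where Lhx6 and then Sox6 and Satb1 direct their fate, whereas many other cortical interneurons come from the caudal ganglionic eminence (CGE) and express genes such as Adarb2 and Prox1. Their axons mostly reach the dendrites of neighbouring principal cells, and the class has several known subtypes, told apart by genes such as Chodl, Calb1, Cort or Reln.

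Sst lies on chromosome 16 (23889573 to 23890958, minus strand, GRCm38/mm10). The 6 genes of the rule are given as a description with no test, since they chose the nuclei. Levels are UMIs summed over the nuclei of a replicate and scaled to a common total over all genes, as CPM. The Sst level in Sst nuclei was 847, 847 and 1016 CPM in aplCoA replicates 1, 2 and 3, and 459, 795 and 971 in pplCoA replicates 1, 2 and 3. The median nucleus held 6 Sst UMIs and the highest 104. Among the other GABAergic nuclei the Sst level was 19.7 CPM and 15.7% held a UMI of Sst, at a median depth of 8885 UMIs per nucleus against 11488 in Sst nuclei. A Sst UMI was also found in 9.08% of microglia (median depth 3362 UMIs) and 10.6% of glutamatergic nuclei (14619 UMIs), whereas 3 or more Sst UMIs were found in 0.0283% and 0.115% of them. Barcodes of at most 100 UMIs, which hold free RNA, carried Sst at 163 to 602 CPM.

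The nuclei on each side of the floor of 3 Sst UMIs had similar levels of the MGE genes. Just inside it, the 96 nuclei with 3 Sst UMIs had a summed level of 58.1 CPM for Lhx6, 903 for Sox6 and 232 for Elfn1. Just outside it, 120 GABAergic nuclei held 2 Sst UMIs, and the 111 of them with at most 1 Vip UMI had 65.6 for Lhx6, 770 for Sox6 and 173 for Elfn1. Adarb2, the CGE marker, separated them more, at 149 CPM inside and 1330 outside. Another 165 nuclei held at least 3 Sst UMIs but fewer than 3 Gad1 and Gad2 UMIs and 9 held 2 or more Slc17a7 and Slc17a6 UMIs; these were left out, as were 2 GABAergic nuclei with more than 1 Vip UMI.

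Over all libraries, the share of Sst nuclei did not differ between the domains beyond the spread between replicates. They made up 9.70%, 16.6% and 12.9% of the GABAergic nuclei in aplCoA replicates 1, 2 and 3, from 137 of 1412, 52 of 313 and 101 of 780 nuclei. In pplCoA replicates 1, 2 and 3 they made up 8.58%, 9.80% and 12.7%, from 67 of 781, 39 of 398 and 57 of 448. The domains overlapped. For aplCoA the mean was 13.1% ± 3.46 (SD, n = 3). For pplCoA it was 10.4% ± 2.13 (SD, n = 3), which is 2.72 percentage points less (two-sided exact permutation test, p = 0.3, where 3 against 3 cannot give less than 0.1). As a share of all nuclei the means were 1.03% ± 0.191 and 0.802% ± 0.196 (exact permutation test, p = 0.3).

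**Figure D1:**
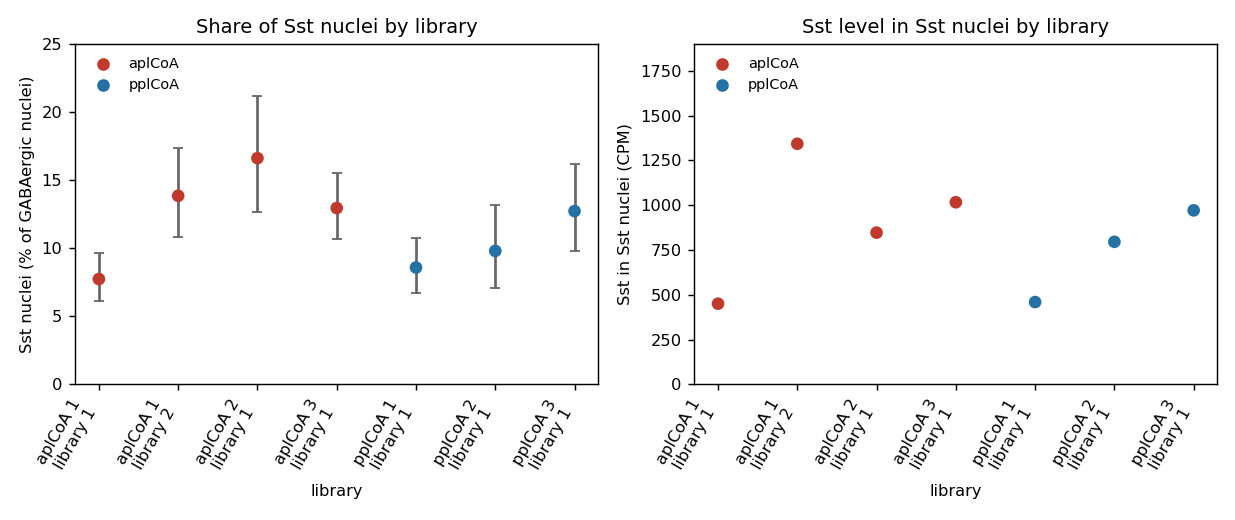
Share of Sst nuclei among GABAergic nuclei (left, percent, with exact Clopper-Pearson 95% intervals that cover counting error only) and the Sst level in the Sst nuclei (right, CPM, no error shown) in each of the 7 libraries, aplCoA in red and pplCoA in blue. Library 1 of aplCoA replicate 1 and the library of pplCoA replicate 1 are the lowest in both plots, at 7.73% and 8.58% and at 450.1 and 459 CPM.

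In the Sst level, those 2 libraries stood apart from the other 5, which had 795 CPM or more. In the share, the interval of pplCoA replicate 1 (6.71 to 10.8) overlapped that of pplCoA replicate 2 (7.06 to 13.2). In library 1 of aplCoA replicate 1 Sst nuclei were 7.73% of GABAergic nuclei (Clopper-Pearson 95% interval 6.12 to 9.61), and in library 2 of the same pool they were 13.8% (10.8 to 17.4); the intervals cover counting error only. The Sst level in those nuclei was 450.1 CPM in the first and 1343 in the second. Without library 1 and without pplCoA replicate 1, the difference in share between domains was 3.21 percentage points (exact permutation test, p = 0.2). With library 2 alone for aplCoA replicate 1 and all other replicates kept, it was 4.10 percentage points, the domains no longer overlapped and p was 0.1 by the exact permutation test, the smallest it can give. Any 2 libraries shared 5 to 36 barcodes among their nuclei, none of them a Sst nucleus in both. Of the 453 Sst nuclei, 35 had doublet scores among the highest of their library; they were kept, and left out only as an alternative. Differences between sums of nuclei cannot tell a larger share of expressing nuclei from more RNA in each. Shares of nuclei are therefore given beside the levels for some of the genes, and for the others the 2 cannot be told apart.

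Lhx6, a marker of Sst neurons that the rule did not use, and other MGE genes were higher in Sst nuclei than in the other GABAergic nuclei. The Lhx6 level (chromosome 2, 36081953 to 36105408) was 68.2, 77.2 and 62.0 CPM in Sst nuclei of aplCoA replicates 1, 2 and 3 and 70.1, 41.4 and 67.0 in those of pplCoA. In the other GABAergic nuclei of the same replicates it lay between 16.4 and 28.6, so that every replicate was higher in Sst nuclei. The log2 fold change was 1.71 ± 0.14 (SE, 6 replicates, adjusted p = 1e-07). At least 1 UMI of Lhx6, Sox6 or Satb1 was found in all but 11 of the 453 Sst nuclei (2.43%), and all 3 genes were found in 162 of them (35.8%). The test between the classes was blocked on the replicate because both classes came from the same pools. It called 1980 of 9566 genes (20.7%) at an adjusted p under 0.05, 976 of them higher (10.2%) and 1004 lower (10.5%) in Sst nuclei. The median log2 fold change over all tested genes was -0.0033. A gene was tested when found in at least 10% of the nuclei of either class, so a gene that reached 10% in 1 class only could hardly be called in the other direction. Of the calls, 156 higher and 168 lower genes were of that kind, and the lists are therefore counted over genes that reached 10% in both classes. Of all 8565 genes that did, 820 were higher and 836 lower in Sst nuclei.

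Of the 6 tested MGE lineage factors, 5 were higher and 1 was lower in Sst nuclei, with a median log2 fold change of 1.41. Satb1, a chromatin organiser needed for the maturation of Sst neurons, had the largest difference (2.26 ± 0.10), and Sox6 followed Lhx6 at 1.30 ± 0.08. Maf, another factor of the lineage, had a log2 fold change of 0.38. Zeb2, a transcriptional repressor, was lower at -1.23 ± 0.09. Nkx2-1, which acts before Lhx6 in the embryo, was too rare to be tested, at 1.29 to 6.54 CPM in Sst nuclei. The pan-GABAergic factor Dlx1 was slightly higher in Sst nuclei (0.34, called in 14 of 19 alternatives).

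CGE markers were low. Of the 5 that reached 10% of nuclei in both classes, 4 were lower in Sst nuclei and none was higher, with a median log2 fold change of -2.34. The other 5 tested, Prox1, Lamp5, Ndnf, Id2 and Npas1, reached 10% in the other GABAergic nuclei only, which fixed their direction, and their values are a description. Adarb2, an RNA-editing family member, lay between 21.8 and 256.5 CPM in Sst nuclei and between 4254 and 5413 in the others, a log2 fold change of -5.32 ± 0.30. Pooled over replicates and with no test, the 100 Sst nuclei with a UMI of Adarb2 differed from the 353 without. Sox6 was found in 73% of them against 97.5%, Lhx6 had 46.2 CPM against 71.8, and Reln had 728 against 91.5. Prox1, the transcription factor that guides CGE interneurons, never exceeded 3.55 CPM in Sst nuclei against 63.6 to 124 in the others (-5.08 ± 0.18). Lamp5, which marks neurogliaform-type cells, had 14 UMIs in all Sst nuclei, or 2.58 CPM against 59.6 in the others (-4.50 ± 0.25). Nr2f2, a nuclear receptor, did not pass the test (-0.21, adjusted p = 0.165).

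**Figure D2:**
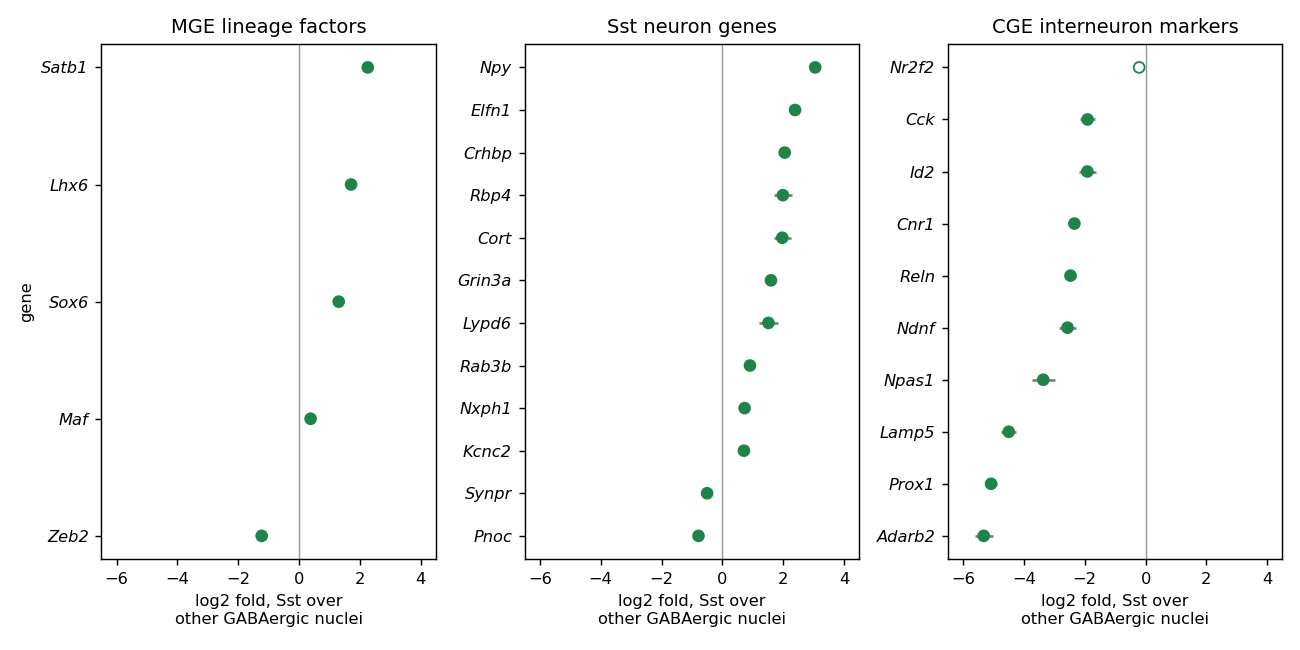
Log2 fold change of Sst over other GABAergic nuclei (x axis) for 27 tested genes of 3 lists, with bars for the standard error; filled points passed an adjusted p of 0.05 and the open point (Nr2f2) did not. Of the plotted MGE factors 4 of 5 lie above 0, of the plotted genes known from Sst neurons 10 of 12, and all 10 CGE markers lie below 0, of which 5 were tested only because of their level in the other nuclei, as 5 of the Sst neuron genes were because of theirs in Sst nuclei.

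Genes known from cortical Sst neurons were mostly higher here too: of the 8 that reached 10% of nuclei in both classes, 6 were higher and 2 were lower. Another 5, Npy, Crhbp, Cort, Rbp4 and Lypd6, reached 10% in Sst nuclei only and are described by their values. Elfn1, a postsynaptic protein that sets the facilitating input of Sst neurons, lay between 153 and 333 CPM in Sst nuclei and between 28.2 and 64.4 in the others (2.39 ± 0.10). Grin3a, an NMDA receptor subunit that lowers calcium entry, had a log2 fold change of 1.60 ± 0.09. Crhbp, which binds the stress peptide CRH, had a log2 fold change of 2.05 ± 0.13. The exceptions were Pnoc, the precursor of nociceptin (-0.78 ± 0.16), and Synpr, a synaptic vesicle protein (-0.50 ± 0.07).

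Among called genes with the same direction in 6 of 6 replicates and a mean of at least 50 CPM in the higher class, the 10 of largest fold in favour of Sst nuclei were of varied function, and Npy and Elfn1 of the lists above were among them. Man1a, a Golgi enzyme that trims glycans, had 772, 523 and 599 CPM in aplCoA and 798, 1247 and 979 in pplCoA. In the other GABAergic nuclei Man1a lay between 42.8 and 122, and the log2 fold change was 3.36 ± 0.12. Lama4, a laminin chain of the extracellular matrix (3.27 ± 0.20), and L3mbtl4, a chromatin-binding protein (3.21 ± 0.16), came next within that choice, followed by Npy, Trpc6, a calcium-permeable cation channel (2.58 ± 0.10), Npsr1, the receptor of neuropeptide S (2.52 ± 0.31), and Spon1, a secreted matrix protein (2.51 ± 0.17). Sytl5, which binds Rab proteins on vesicles, and the uncharacterised Gm49678 had log2 fold changes of 2.35 and 2.28. Lama4, Npy and Npsr1 reached 10% of nuclei in Sst nuclei only, and Egfr, Egfros, 6530411M01Rik, Pde11a, Hcrtr2 and Kit in the others only, so their values are a description. Egfr, the epidermal growth factor receptor, was among the genes furthest down. It had 0 to 8.50 CPM in Sst nuclei and 244 to 331 in the others, a log2 fold change of -5.84 ± 0.19. Its antisense partner Egfros had only 3 UMIs in Sst nuclei against 2565 in the others, a ratio of 130 in favour of the others with a 95% counting interval from 44.3 to 630; without stated strand use the reads of the pair cannot be told apart. Further down in Sst nuclei were 6530411M01Rik (-4.93), the phosphodiesterase Pde11a (-4.56), the orexin receptor Hcrtr2 (-4.27), the transcription factor Zbtb16 (-4.23) and the stem cell factor receptor Kit (-4.22). The 20 genes singled out in this way in both directions, Adarb2, Prox1 and Lamp5 among them, had 1 direction in 6 of 6 replicates by choice, as 22.3% of all tested genes had.

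Sst itself was left out as a rule gene. Of the 7 peptide genes tested between the classes, the largest fold in favour of Sst nuclei was that of Npy. It is the gene for neuropeptide Y, on chromosome 6 (49822710 to 49829507). Its level was 235, 154.5 and 149 CPM in aplCoA and 65.9, 139.5 and 150.4 in pplCoA, against 7.15 to 27.5 in the other GABAergic nuclei. Npy reached 10% of nuclei in Sst nuclei only, so its direction was nearly fixed and its values are a description. The domains overlapped. Only 2 peptide genes, Pnoc and Cck, reached 10% in both classes, and both were lower in Sst nuclei. Another 3, Npy, Cort and Crhbp, reached it in Sst nuclei only, and 2 in the others only. The log2 fold change was 3.05 ± 0.16. Npy was found in 52.5% of Sst nuclei and 8.92% of the others. Cort, which encodes the somatostatin-related cortistatin, had a log2 fold change of 1.97 ± 0.29. Cck, the cholecystokinin gene of another interneuron class, had a log2 fold change of -1.91 ± 0.24. Among 12 genes that process or pack peptides and reached 10% in both classes, 4 were higher, namely the convertase Pcsk1, the granins Chga and Vgf and the convertase inhibitor Pcsk1n, and 2 were lower. Within the class, the gene whose level per nucleus followed Sst most closely was also Npy (Spearman rho 0.37 over 453 nuclei). The next were Atp6v0c, a subunit of the vesicular proton pump (0.36), Ubb, a ubiquitin gene (0.36), Gm42418 (0.34) and Pcsk1n (0.33). The points share library and depth, the correlations are weak, and they are given as a description.

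Glutamate receptor genes differed in both directions, 11 higher and 4 lower of 22 tested, with a median log2 fold change of 0.22. Gria1, an AMPA receptor subunit, lay between 4103 and 7641 CPM in Sst nuclei and between 1599 and 2391 in the others (1.52 ± 0.08). The raised genes also held the AMPA subunits Gria3 (0.87) and Gria4 (0.30), the kainate subunit Grik3 (1.41), and the metabotropic receptors Grm7 (1.21) and Grm5 (0.52). The lower ones were the NMDA subunits Grin2a (-0.66) and Grin2d (-0.43) and the kainate subunits Grik1 (-0.49, called in 9 of 19 alternatives) and Grik4 (-0.99). The GABA-A receptor subunits leaned the other way, 3 higher and 6 lower of the 11 that reached 10% in both classes, with Gabrg1 at 1.92 ± 0.17.

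Ion channel and modulator receptor genes were split. Of 28 voltage-gated channel genes, 9 were higher and 9 lower. Cacna2d1 and Cacna2d3, accessory subunits of calcium channels, moved in opposite directions, with log2 fold changes of -4.08 ± 0.18 and 1.27, and Kcnq5, a subunit of the M-current potassium channel, was lower at -3.61 ± 0.25. Of 9 monoamine and acetylcholine receptor genes that reached 10% in both classes, 3 were higher and 3 lower. Among the higher was Htr2c, a serotonin receptor (0.61, called in 16 of 19 alternatives). The 8 astrocyte markers together had 89.4 to 334 CPM in Sst nuclei and 244 to 409 in the others, and 2 of the 3 that reached 10% in both classes were lower in Sst nuclei. The 7 microglia markers had 119 to 280.0 against 123 to 223, with P2ry12 higher in Sst nuclei, and the 6 oligodendrocyte precursor markers had 419 to 868 against 325 to 487, with Lhfpl3 higher. The part of these markers in the results was not tested.

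Markers of known Sst subtypes were found in very unequal shares of Sst nuclei. To compare shares at equal depth, each nucleus was thinned to 3000 UMIs, which left 452 Sst nuclei. Grin3a was then found in 75.0% (90.9% at full depth), Elfn1 in 45.1% (73.1%), Calb1, a calcium-binding protein, in 37.5% (58.9%) and Npy in 26.3% (52.5%). Reln, the secreted protein reelin, was found in 21.4%, Etv1, a transcription factor, in 15.0% and Nos1, which makes nitric oxide, in 7.70%. Cort, Tac1, the substance P precursor, Crhr2, a CRH receptor, and Chodl, a marker of long-range Sst neurons, were found in 5.86%, 4.72%, 4.79% and 2.81%. Among microglia, which should lack these genes, the shares at that depth were 9.73% for Grin3a, 1.14% for Elfn1, 4.28% for Calb1, 1.61% for Npy, 4.51% for Reln and 0.33% for Cort. Etv1 was more frequent in microglia (24.0%) than in Sst nuclei, so its share was not read. Nos1 was found in more of the other GABAergic nuclei (9.68%), and Pvalb, the marker of the other main MGE class, was found in 0.626% of Sst nuclei. Only 11 GABAergic nuclei met a matching rule for Pvalb neurons, and Sst and Pvalb nuclei could not be compared.

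**Figure D3:**
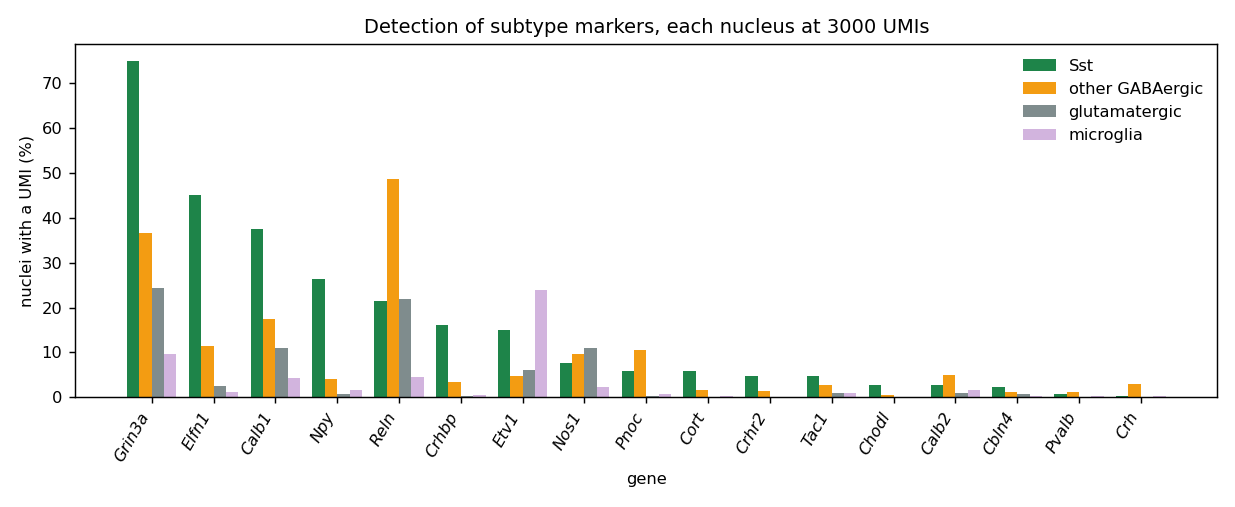
Share of nuclei with at least 1 UMI of each marker (y axis, percent) after each nucleus was thinned to 3000 UMIs, in Sst, other GABAergic, glutamatergic and microglial nuclei. Grin3a, Elfn1, Calb1 and Npy have their highest bar in Sst nuclei (75.0%, 45.1%, 37.5% and 26.3%), and Reln has its highest in other GABAergic nuclei (48.5%).

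Several of these markers kept company within nuclei, as far as sparse counts show; the following shares are counts of nuclei at full depth, pooled over replicates, with no test. Chodl was found in 39 Sst nuclei. Of these 33 also held Npy (84.6%, against 49.5% of the 414 without Chodl), 19 held Tacr1, the substance P receptor (48.7% against 8.94%), and 12 held Nos1 (30.8% against 18.1%). Chodl, Nos1, Npy and Tacr1 are known together from long-range Sst neurons. Tac1 and Cort also went together: 19 of 39 nuclei with Tac1 held Cort (48.7%), against 10.4% of those without. The 41 Sst nuclei in which no Grin3a was found held Cort in 48.8% and Tac1 in 41.5%, and Reln in 7.32%, whereas the 412 with Grin3a held them in 10.2%, 5.34% and 41.7%. Nuclei with Cort were 54 in aplCoA and 8 in pplCoA, so the pooled shares with Cort mostly describe aplCoA. Nuclei with Reln differed by domain. In aplCoA the 113 with Reln had 420.4 CPM of Adarb2 against 35.4 in the 177 without, higher in 3 of 3 replicates. In pplCoA the 62 with Reln had 56.2 against 52.9 in the 101 without, higher in 1 of 3. Calb1 was lower in nuclei with Reln in 3 of 3 aplCoA replicates (119 against 285) and in 2 of 3 pplCoA replicates (200.5 against 242).

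Between the domains, 208 of 9837 genes differed in Sst nuclei (2.11%), 82 higher in aplCoA (0.834%) and 126 lower (1.28%). Of these, 12 higher and 4 lower genes reached 10% of Sst nuclei in 1 domain only, so that their direction was nearly fixed by the filter and their values are a description. Among the 12 were Cort, Penk, Tac1, Rbp4, Cadps2, Nxph2, Tgfbr2, Tspan18, Phlda1 and Tob1, and the 4 were Hrh1, Ntf3, Gm47428 and Gm20713. For 203 of these the 2 domains had no overlap between replicates, as for 19.7% of all tested genes. In the other GABAergic nuclei, of which there were more, 758 of 9070 genes were called (8.36%), 4.32% of those tested being higher and 4.04% lower in aplCoA. Of the 208 genes, 195 were tested there too and 106 were called, 105 of them in the same direction, in nuclei of the same libraries. None of the 6 tested MGE lineage factors was called between the domains in Sst nuclei (median log2 fold change -0.04), nor were Npy, Calb1, Crhbp and Grin3a. With 2.11% of genes called, so few genes could hardly hold a call, and no result is drawn from its absence. Without the 2 libraries of low Sst level, Satb1 (0.75) and Grin3a (-0.64) were called. In the other GABAergic nuclei 3 of the 6 factors were lower in aplCoA (Sox6, Maf and Zeb2) and none was higher. The number of calls rested on few pools: it was 54 without pplCoA replicate 2, 58 without aplCoA replicate 2, 79 without pplCoA replicate 3, 89 without aplCoA replicate 1 and 380 without pplCoA replicate 1, and 33 with only library 1 of aplCoA replicate 1. It was 2 among the 139 nuclei with at least 10 Sst UMIs, which is a smaller set of nuclei.

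The genes higher in aplCoA held the peptide genes Cort, Penk and Tac1. All 3 reached 10% of Sst nuclei in aplCoA only, so that they could hardly have been called in the other direction, and no count over peptide genes is drawn from them; of the 4 peptide genes that reached 10% in both domains, none was called. Cort (chromosome 4, 149125034 to 149126763) had 32.1, 35.9 and 31.0 CPM in the Sst nuclei of aplCoA and 4.25, 10.9 and 1.64 in those of pplCoA. The domains were far apart, with a log2 fold change of 2.61 ± 0.41, given as a description. A UMI of Cort was found in 16.1%, 28.8% and 16.8% of Sst nuclei in the aplCoA replicates and in 5.97%, 7.69% and 1.75% in the pplCoA replicates. Penk, the enkephalin precursor (chromosome 4, 4133531 to 4138819), had 20.6, 16.6 and 9.75 CPM in aplCoA and 1.06, 0 and 0 in pplCoA. It thus rested on 55 UMIs in aplCoA and 1 in pplCoA, a ratio of 32.5 with a 95% counting interval from 5.59 to 1305. A UMI of Penk was found in 11.4% of aplCoA and 0.613% of pplCoA Sst nuclei. Tac1 had 36.003, 44.1 and 12.4 CPM in aplCoA and 1.06, 4.36 and 13.1 in pplCoA, so its domains overlapped. Its log2 fold change was 2.34 ± 0.59, likewise a description, and it was called in 8 of 14 alternatives.

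Rbp4, a retinol carrier known from a subset of Sst neurons, also reached 10% of nuclei in aplCoA only. Its level was 28.9, 42.8 and 28.4 CPM in aplCoA and 7.44, 2.18 and 3.27 in pplCoA, without overlap. The log2 fold change was 2.61 ± 0.41, given as a description. A UMI of Rbp4 was found in 16.2% of aplCoA and 4.91% of pplCoA Sst nuclei. Scg2, a granin of peptide vesicles, was higher in aplCoA as well (1.18 ± 0.23, called in 11 of 18 alternatives). Cadps2, which primes those vesicles and reached 10% in aplCoA only, had a log2 fold change of 1.90 ± 0.39. Also higher were Reln and Adarb2, which were lower in Sst than in other GABAergic nuclei. Reln (chromosome 5, 21884454 to 22344702) had 321, 313 and 277 CPM in aplCoA and 87.2, 155 and 123 in pplCoA (1.30 ± 0.17, adjusted p = 0.00293), and Adarb2 had 224, 256.5 and 122 against 49.95, 21.8 and 85.0 (1.81 ± 0.30, adjusted p = 0.00711). At 3000 UMIs per nucleus, however, Reln was found in 25.4%, 18.5% and 21.2% of the aplCoA nuclei and in 13.7%, 21.4% and 24.0% of the pplCoA nuclei, which overlap. Adarb2 was found at that depth in 14.9%, 16.4% and 13.6% of the aplCoA nuclei. In the pplCoA nuclei its shares were 7.27%, 8.48% and 11.7%. Among microglia Adarb2 was found at that depth in 10.6%, which lies within the pplCoA range and below each aplCoA share. In each replicate, barcodes of at most 100 UMIs, which hold free RNA, carried Adarb2 at a higher CPM than the Sst nuclei. The part of free RNA in the Adarb2 shares and levels of Sst nuclei, here and below, was not tested. At full depth Adarb2 was found in 24.1% of aplCoA and 18.4% of pplCoA Sst nuclei.

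Erbb4, the neuregulin receptor, was higher in aplCoA (1.16 ± 0.26, called in 10 of 18 alternatives), with 2299, 4189 and 3351 CPM in aplCoA and 2229, 782 and 1143 in pplCoA. Its lowest aplCoA and highest pplCoA replicates were close. A UMI of Erbb4 was found in 93.8% of aplCoA and 92.6% of pplCoA Sst nuclei. Gabrg3, a GABA-A receptor subunit, had 836, 1068 and 758 against 381, 105 and 358 (1.54 ± 0.27), well apart. Nxph2, a secreted ligand of neurexins, had a log2 fold change of 1.78 ± 0.44, Tgfbr2, a TGF-beta receptor, 2.35 ± 0.54 and Tspan18, a membrane protein, 1.84 ± 0.39. All 3 reached 10% of nuclei in aplCoA only, and they were called in 8 of 16, 10 of 15 and 8 of 16 alternatives. Phlda1 and Tob1, which respond to growth signals, rested on few counts and were called in 10 of 17 and 7 of 17. Phlda1 had 49 UMIs in aplCoA and 3 in pplCoA, a ratio of 9.64 with a 95% counting interval from 3.11 to 48.3.

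**Figure D4:**
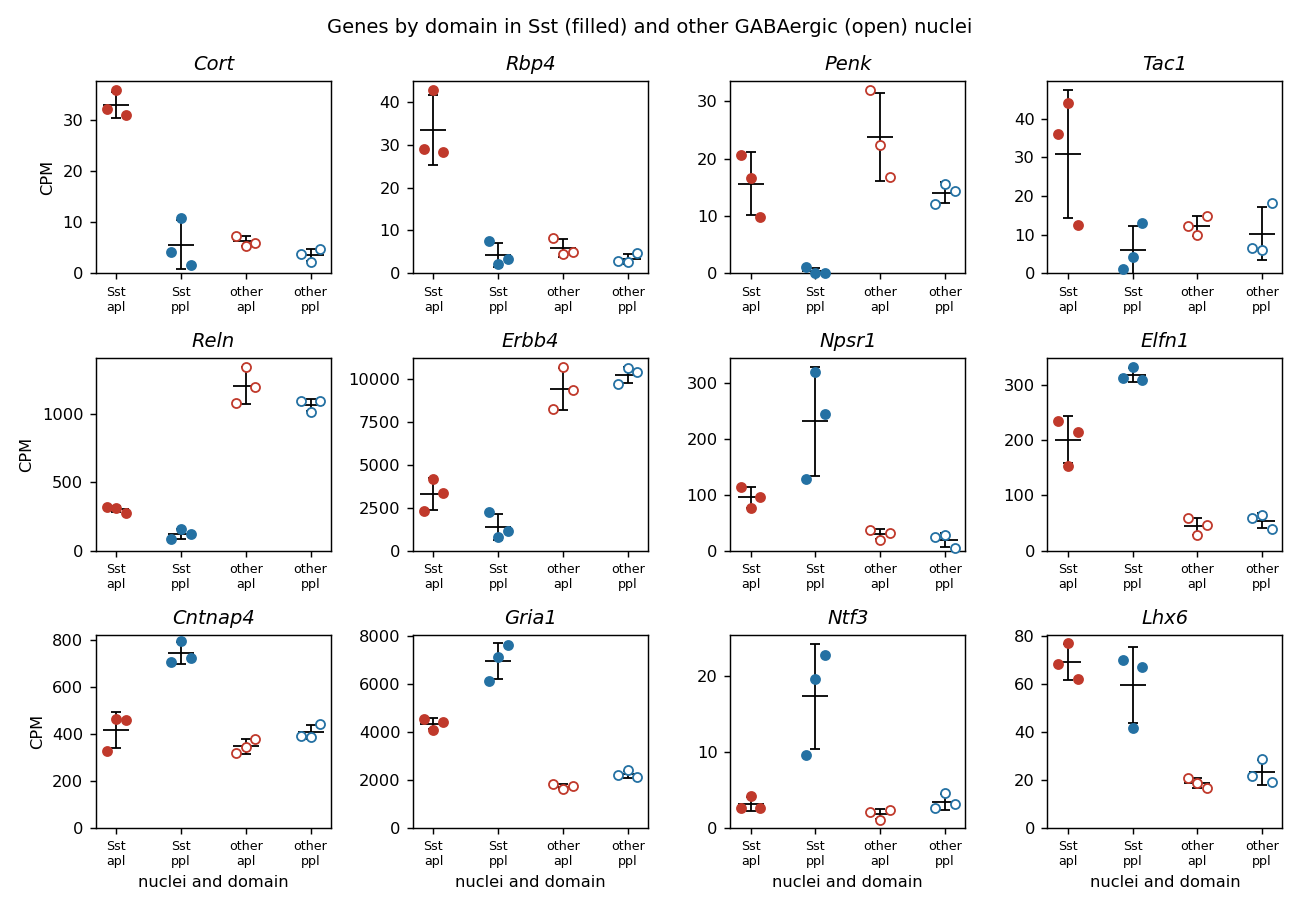
Levels of 12 genes (y axes, CPM, each axis from 0) by replicate in Sst nuclei (filled) and other GABAergic nuclei (open) of aplCoA (red) and pplCoA (blue), with the mean and SD of the 3 replicates. In Sst nuclei Cort, Rbp4, Penk and Reln are higher in aplCoA without overlap, whereas Lhx6 overlaps. Npsr1, Elfn1, Cntnap4, Gria1 and Ntf3 are higher in pplCoA without overlap. Cort, Rbp4 and Penk reached the share of nuclei needed for testing in aplCoA only, and Ntf3 in pplCoA only. The direction of Cort, Rbp4, Penk and Ntf3 was thus nearly fixed. They were also chosen for large fold and for no overlap, which 19.7% of all tested genes had.

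Npsr1 was among the genes lower in aplCoA, and so higher in pplCoA. Of all 8815 genes that reached 10% in both domains, 70 were higher and 122 lower in aplCoA. Among them, 2 of 23 synaptic organizer genes were lower in aplCoA (Cntnap4 and Elfn1) and none was higher. Of 6 peptide and hormone receptor genes 1 was lower (Npy2r), and none of 10 monoamine and acetylcholine receptor genes was called. Lists this short could hardly hold a call at those shares, and no result is drawn from the absence of one. Npsr1 (chromosome 9, 24097996 to 24316398) had 114, 75.9 and 95.7 CPM in aplCoA and 127.5, 320.4 and 245 in pplCoA. The lowest pplCoA replicate lay just above the highest aplCoA replicate, and the log2 fold change was -1.27 ± 0.24 (adjusted p = 0.0127). A UMI of Npsr1 was found in 21.9%, 15.4% and 22.8% of Sst nuclei in aplCoA and in 20.9%, 53.8% and 42.1% in pplCoA, where replicate 1 was within the aplCoA range. Cntnap4, a neurexin family protein of inhibitory synapses, had 326, 462 and 459 against 709, 798 and 726 CPM (-0.92 ± 0.14, adjusted p = 0.0045). Elfn1 (chromosome 5, 139907943 to 139974722) had 235, 153 and 214 against 312.5, 333 and 309 (-0.72 ± 0.15, adjusted p = 0.0169, called in 12 of 18 alternatives). At 3000 UMIs it was found in 40.0%, 31.0% and 41.2% of aplCoA and 53.9%, 60.4% and 56.3% of pplCoA Sst nuclei, again with no overlap.

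Of 22 glutamate receptor genes, 4 were lower in aplCoA and none was higher, with a median log2 fold change of -0.17. All 22 reached 10% in both domains, where 122 of 8815 genes were lower and 70 higher. In the other GABAergic nuclei 4 of 22 were lower too, Gria1, Grik3 and Grm7 among them together with Grik4, and none was higher. Gria1 had 4554, 4103 and 4406 CPM in aplCoA and 6145, 7159 and 7641 in pplCoA (-0.75 ± 0.11, adjusted p = 0.00389). Grin2a (-0.75 ± 0.13), Grik3 (-0.66 ± 0.12) and Grm7 (-0.44 ± 0.11, called in 8 of 18 alternatives) were the others. Kcnq3, a potassium channel subunit (-0.52 ± 0.12), and Cacna2d3 (-0.56 ± 0.13) were the only 2 of 28 channel genes called, each in 9 of 18 alternatives. Npy2r, a receptor for neuropeptide Y, had a log2 fold change of -1.11 ± 0.28 and was called in only 6 of 17 alternatives. Hrh1, a histamine receptor, had 3.21, 2.76 and 3.54 CPM in aplCoA and 12.8, 10.9 and 11.4 in pplCoA (-1.91 ± 0.47, called in 7 of 16 alternatives). Ntf3, the growth factor neurotrophin-3, had 2.57, 4.14 and 2.66 against 9.57, 19.6 and 22.9 (-2.48 ± 0.50), and Bche, a cholinesterase, had 40.5, 19.3 and 42.5 against 63.8, 102 and 109.5 (-1.38 ± 0.25). These 3 genes, like the others singled out for size, were chosen to have no overlap. The remaining genes of largest fold were uncharacterised or noncoding, namely Gm47428, Gm20713, Gm11899, T2, 2610204G07Rik, 4930488N15Rik and Gm3848, with log2 fold changes from -2.43 to -1.35. Of these, Gm47428 was called in only 5 of 16 alternatives, 2610204G07Rik in 9 of 17, T2 in 10 of 17 and Gm3848 in 10 of 18.

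Among the genes that set Sst nuclei apart from other GABAergic nuclei, several also differed between the domains. L3mbtl4 (-0.999 ± 0.15), Lama4 (-1.21 ± 0.27), Man1a (-0.74 ± 0.16), Npsr1 and Elfn1 were lower in aplCoA, and Spon1 was higher there (0.77 ± 0.16). Of these, Lama4 and Spon1 were called in 11 of 18 alternatives and Man1a in 10 of 18. Oxidative phosphorylation genes leaned to aplCoA in both classes. In Sst nuclei 3 of the 13 such nuclear genes that reached 10% in both domains were called, all higher in aplCoA (Atp5g3, Cox5b and Ndufa4, in 16, 8 and 9 of 18 alternatives), and the median was 0.53. The full list of 15 genes together had 690.3 to 885 CPM in aplCoA and 403 to 548 in pplCoA. In the other GABAergic nuclei of the same libraries the ranges were 688 to 806 and 477 to 548, and 13 of 15 genes were called, all higher in aplCoA. The 13 mitochondrially encoded genes summed to 233 to 404 CPM in aplCoA Sst nuclei and 157 to 183 in pplCoA Sst nuclei, with 0 of 7 tested genes called. In the other GABAergic nuclei they summed to 269 to 432 and 188 to 210, with 7 of 8 called higher in aplCoA. The part of these shifts in the calls above was not tested. Markers of glutamatergic neurons summed to 252 to 261 CPM in the Sst nuclei of aplCoA and 222 to 290.1 in those of pplCoA, and those of microglia to 119 to 280.0 and 154 to 233, so both overlapped between the domains. The 14 CGE markers, with Reln and Adarb2 among them and Sp8 at 0, summed to 535 to 772 in aplCoA and 269.9 to 342 in pplCoA, without overlap. Taken singly, 7 of them had the higher median in aplCoA and 6 in pplCoA, so the sum does not show a shift of the whole list. The part of the CGE markers in the calls was not tested.

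Whether the difference between domains was itself different in Sst nuclei was tested with a class-by-domain term, which called 32 of 9566 genes (0.335%), 20 of them (0.209%) more to aplCoA in Sst nuclei and 12 (0.125%) more to pplCoA. Reln was one of them: the log2 difference between domains was 1.30 in Sst nuclei and 0.13 in the other GABAergic nuclei, and the term was 1.19 ± 0.19 (adjusted p = 0.0164). For Adarb2 the values were 1.81 and -0.21 (term 2.00 ± 0.28, adjusted p = 0.00876), and for Erbb4 they were 1.16 and -0.17 (term 1.41 ± 0.26, adjusted p = 0.0199). Penk was higher in aplCoA in both classes, by 4.60 and 0.80 on the log2 scale, with a term of 4.03 ± 0.82 (adjusted p = 0.0373). Penk was tested here only through its share in the other GABAergic nuclei. In Sst nuclei it rested on 55 UMIs in aplCoA and 1 in pplCoA, so its term is read as a description. Nxph2 went opposite ways, at 1.78 and -0.77 (term 2.50 ± 0.46).

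Cadps2 and Gabrg3 were also more to aplCoA in Sst nuclei. More to pplCoA were Cntnap4 (-0.65), L3mbtl4 (-1.01), the proprotein convertase Pcsk5 (-0.80), the protease inhibitor Serpine2 (-1.23), the adhesion protein Cdh8 (-1.09) and Cacna2d3 (-0.68). No gene of the 22 glutamate receptors, of the 6 MGE factors or of the mitochondrial lists was called. With 0.335% of all tested genes called, lists this short could hardly hold a call, and no result about them is drawn. Cort (term 1.85, adjusted p = 0.25) and Rbp4 (1.73, adjusted p = 0.37) were not called either. The number of calls was 1 without aplCoA replicate 3 or without pplCoA replicate 3, 6 without aplCoA replicate 2, 13 without aplCoA replicate 1 and 141 without pplCoA replicate 1, beside 24 without pplCoA replicate 2 and 10 with only library 1 of aplCoA replicate 1. Adarb2 was called in 16 of its 17 alternatives, Reln in 11 of 17 and Penk in 7 of 13. Others kept the term's call in 8 of 17 (Cntnap4, Cacna2d3 and Pcsk5), 9 of 17 (Erbb4 and Gabrg3), 10 of 17 (Nxph2), 11 of 17 (Cadps2 and L3mbtl4) or 12 of 17 (Serpine2 and Cdh8).

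Splitting the Sst nuclei by Npsr1 or by Cort, a choice made after their values were seen and described with no test, gave the levels of these genes side by side. Nuclei with a UMI of Npsr1 were 61 of 290 in aplCoA and 59 of 163 in pplCoA. They had more Man1a than those without, 1149 against 511 CPM in aplCoA and 1256 against 773 in pplCoA. L3mbtl4 (420 against 171, and 549.6 against 329.7), Lama4 (85.8 against 23.4, and 133 against 47.9) and Gria1 (6864 against 3652, and 8952 against 5547) were likewise higher in nuclei with Npsr1. These 4 genes had that direction in 3 of 3 replicates of both domains. Erbb4 ran the other way, at 1266 against 3600 in aplCoA and 714 against 2086 in pplCoA, as did Rbp4, at 2.49 against 40.7 and 0 against 7.98. Cntnap4 hardly followed Npsr1 and differed between the domains within both sets of nuclei, at 333 against 419 in aplCoA and 717 against 745 in pplCoA.

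Nuclei with a UMI of Cort were 54 of 290 in aplCoA and only 8 of 163 in pplCoA. In aplCoA they had 5856 CPM of Erbb4 against 2454 in those without, 88.9 against 19.6 of Rbp4, 106 against 13.9 of Tac1 and 335 against 190 of Calb1. Elfn1 (93.9 against 235) and Reln (139 against 340.3) were lower in nuclei with Cort. Each of these 6 genes had that direction in 3 of 3 aplCoA replicates. In pplCoA the 8 nuclei were too few to describe by replicate. In aplCoA, then, nuclei with Npsr1 had less Erbb4 and Rbp4 and more Elfn1 than those without, and nuclei with Cort had more Erbb4 and Rbp4 and less Elfn1.

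**Figure D5:**
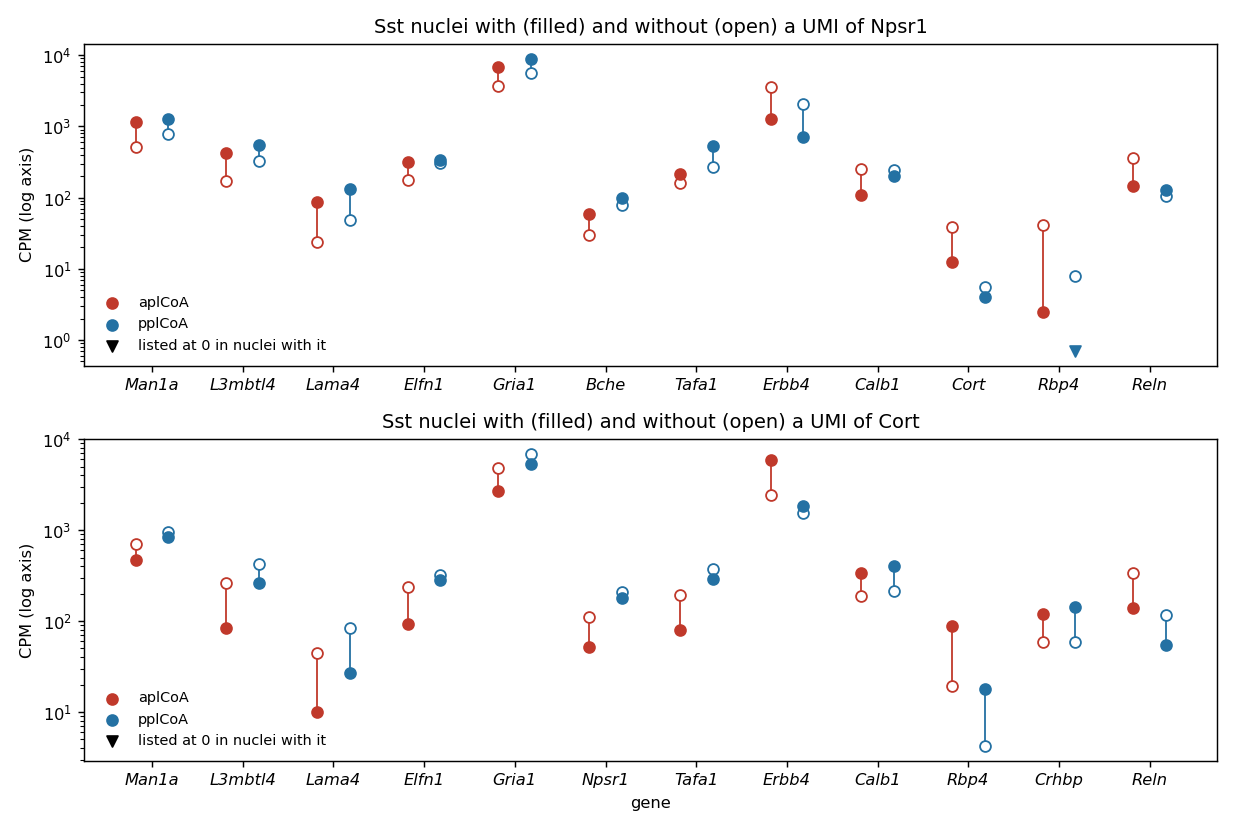
Levels of 12 genes (y axes, CPM, log scale) in Sst nuclei with (filled) and without (open) a UMI of Npsr1 (top) or Cort (bottom), pooled by domain, aplCoA in red and pplCoA in blue; a triangle stands for a gene listed at 0. In aplCoA, nuclei with Npsr1 lie above those without for Man1a, L3mbtl4, Lama4 and Gria1 and below for Erbb4 and Rbp4. Nuclei with Cort show the reverse for each of these genes.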

How the data were processed

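Nuclei were profiled by droplet snRNA-seq (10x Genomics) in 7 libraries of pooled male tissue. The deposited counts are UMIs per gene and barcode, which the authors made with Cell Ranger (5.0.0 in the submitters' processing notes, mm10); the strand setting is not given in the sources used here. Library totals ran from 50812605 to 129624583 UMIs over all barcodes, and Sst sums from 458862 to 1555416 UMIs per replicate, so genes with few UMIs have wide counting errors; intervals cover counting error only. Barcodes with at least 1000 genes and at most 30000 UMIs were kept. No doublets were removed; the highest Scrublet scores (1% per 1000 nuclei of a library) were left out as an alternative. Files gave no cell annotation, so classes rest on the counts of the rule genes.

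UMI counts were summed per replicate and class. Genes found in at least 10% of nuclei of either side were tested, without the 6 rule genes, by edgeR's quasi-likelihood test (4.0.16, R 4.3.3, TMM) (p adjusted after Benjamini-Hochberg, called under 0.05); standard errors are the log2 fold change divided by the root of F. Models were domain (6 sums), class with a replicate block (12 sums) and class by domain. Shares were compared by exact permutation (scipy 1.17.1), and DESeq2 1.42.0 was an alternative. Named genes were members of the gene lists and the 10 called genes of largest fold in each direction, without overlap between domains, or, between classes, with 1 sign in all replicates and a mean of at least 50 CPM in the higher class; for likeness to Sst the 5 highest correlations were taken. A gene outside these rules was chosen after its values were seen. In simulated data of the domain comparison, 74% of 100 genes changed 2-fold and 100% of 100 changed 4-fold were recovered among 9837 genes, with 7 false calls. For the class-by-domain term 53% and 97% were recovered, also with 7 false calls. Only genes above a floor on mean UMIs were changed, so recovery of rarer genes such as Penk, Phlda1 and Tob1 was not covered. Members, lists and tests were chosen with earlier results of these data known. Positions are from GENCODE on GRCm38/mm10. The comparison with Pvalb nuclei was not made, since 11 nuclei met its rule. Some genes are not reported here by name, though they count in the totals of their lists.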

Additional observations from a re-analysis of the deposited data

Results flagged for a closer look

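In all, 24 groups were examined for a sample far from the others. They were the log2 ratio of Sst to other GABAergic CPM for the class genes of largest fold, the Sst shares, and the Sst level by replicate and by library. Of these groups 2 had such a sample, both of them gene ratios over 6 replicates, and chance gives about 1 in 20. For Sytl5 the lowest ratio was 1.64. For Kit the lowest was -7.59, in pplCoA replicate 2, where the gene was listed at 0 in Sst nuclei.

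The difference between aplCoA and pplCoA differed between Sst and other GABAergic nuclei for 32 genes by the class-by-domain term of edgeR. More to aplCoA in Sst nuclei were Penk (4.03), Nxph2 (2.50), Gm10475 (2.12), Adarb2 (2.00), Cadps2 (1.98), Zmat4 (1.56), Erbb4 (1.41), Plcxd3 (1.35), Gabrg3 (1.32) and Chsy3 (1.30), each value being the difference of log2 fold changes. More to pplCoA were Dpy19l1 (-1.34), Zmiz1os1 (-1.31), Serpine2 (-1.23), Cdh8 (-1.09), Gda (-1.04), L3mbtl4 (-1.01), Pde1a (-0.94), Pcsk5 (-0.80), Cacna2d3 (-0.68) and 4930555F03Rik (-0.68). Zmiz1os1 is an antisense gene whose reads cannot be told apart from those of its partner without strand.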

How the results depend on the processing

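No share difference changed direction, and no named gene changed sign in any alternative that gave a value. Leaving out 1 replicate at a time gave differences of 0.959 to 4.41 percentage points of GABAergic nuclei and 0.128 to 0.345 of all nuclei, 54 to 380 genes that differ between aplCoA and pplCoA in Sst nuclei (domain calls, 208 with all), 1621 to 1825 genes that differ between Sst and other GABAergic nuclei (class calls, 1980 with all) and 1 to 141 genes whose aplCoA to pplCoA difference differs between Sst and other GABAergic nuclei (class-by-domain calls, 32 with all). With no filter on low genes there were 449 domain and 188 class-by-domain calls, and with edgeR's likelihood ratio test 378 and 120. Among nuclei with at least 10 Sst UMIs there were 2 domain, 1257 class and 2 class-by-domain calls, and with Sst at 500 CPM or more 62 domain and 5 class-by-domain calls. With only library 1 of aplCoA replicate 1 there were 33 and 10. At an adjusted p under 0.01 and 1.5-fold there were 44, 944 and 1. Nuclei thinned to 3000 UMIs gave 989 class calls. Without the 2 libraries of low Sst level, chosen after seeing the data, there were 293 domain, 1518 class and 152 class-by-domain calls. Except for the thresholds and the smaller sets of nuclei or samples, the cause was not tested. For the 20 genes of largest fold in each comparison, 224 of 335 gene-by-setting values between domains, 379 of 379 between classes and 199 of 336 for the class-by-domain term stayed past the threshold, and the others lost the call. Smaller class differences held less often: Grik1 was called in 9 of 19 alternatives, Grin2d and Dlx1 in 14 of 19, Htr2c in 16 of 19 and Pnoc in 17 of 19. Replicate numbers share only a number between the domains (correlations of deviations -0.023, -0.0084 and -0.015), and no replicate correlated best with its own number. A replicate block gave 154 domain calls, and the class comparison without its replicate block gave 1878. DESeq2 gave 140, 1502 and 22 calls. Depth limits genes such as Penk, Phlda1 and Ntf3, which rest on few UMIs.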
